A study of Mus musculus with 2 samples.

Results

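The genes described here are 10 components of fibroblast growth factor (Fgf) signaling in mouse embryonic stem cells (ESCs): the secreted ligands Fgf4, Fgf15, Fgf8, Fgf1 and Fgf17, the receptors Fgfr1, Fgfr2, Fgfr3 and Fgfr4, and the secreted binding protein Fgfbp1. They were taken by gene symbol from the 24532 genes of the mm10 expression table, and each symbol matched 1 row. The study compared polyadenylated RNA of E14 cells with that of Sox2 T258A cells (E14-Sox2 TA/WT) to learn which genes depend on threonine 258 of Sox2. This residue can carry O-GlcNAc, a single sugar that alanine cannot bear. Each genotype had 1 library. The parental E14 line, an established line of male mouse ESCs, was wild type at Sox2 and was kept in serum and leukemia inhibitory factor (LIF). Sox2 T258A is 1 clone of E14 in which 1 Sox2 allele was edited by CRISPR/Cas9 with a single-stranded donor, while the other allele stayed wild type. The clone was picked and routinely kept with the Mek inhibitor PD0325901 and the Gsk3 inhibitor CHIR99021 (2i), which were withdrawn some passages before use, and both lines shared serum and LIF. Genotype, clone and the history with a Mek inhibitor, which acts downstream of Fgf receptors, therefore differed together and cannot be told apart in these data.

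Fgf ligands bind receptor tyrosine kinases together with heparan sulfate chains on the cell surface, and the receptors pass the signal through the adaptor Frs2 to Ras, Mek and Erk. ESCs make their own ligand, chiefly Fgf4, and signal through Fgfr1. In the early embryo and in ESC culture this loop moves cells out of the naive state and toward lineage commitment, and it is also needed for the primitive endoderm, the extraembryonic layer next to the epiblast. Fgf15 and its relatives of the endocrine group use a Klotho protein in place of strong heparan sulfate binding.

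The libraries held 60263536 counted reads in E14 and 44609228 in Sox2 T258A cells. Levels are given as TPM, transcript abundance scaled for gene length and library size, and differences as the log2 ratio of TPM in Sox2 T258A over E14. Intervals in square brackets are 95% intervals from the read counts alone. They cover counting error only, since amplified reads are not independent molecules, and no difference below has a replicate check or a p-value. Sox2 itself was at 373 TPM (28936 reads) in E14 and 274 TPM (14270 reads) in Sox2 T258A cells, a log2 ratio of -0.44. The edit is a change of codon, so the Sox2 level does not check the label. All 9 pluripotency markers were present in both libraries, with Pou5f1 (Oct4) at 1725 and 1759 TPM. Nanog was the single marker of that list more than 2-fold apart, with a log2 ratio of -1.07. Of all genes with at least 1 TPM, 9.95% were more than 2-fold lower. In bulk RNA, fewer cells of a type and less RNA per cell cannot be told apart.

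The Fgf genes differed between the libraries in both directions. Fgf4, the most abundant of them, was lower in Sox2 T258A cells, whereas the less abundant ligands Fgf15, Fgf8, Fgf1 and Fgf17 were all higher. Fgfr1 and Fgfr2 were higher, and Fgfr3 and Fgfr4 were lower. Fgfbp1 was 3.58-fold higher. Under the study's filter of 10 TPM in at least 1 library, 6 of the 10 genes were retained. Of these, 2 (Fgf15 and Fgfbp1) were more than 2-fold higher and 1 (Fgfr4) was more than 2-fold lower. Of all genes in the table, 9094 met the filter, of which 4.17% were more than 2-fold higher and 4.07% more than 2-fold lower. Fgf15 and Fgfbp1 met the filter through Sox2 T258A and Fgfr4 through E14 alone, so a difference was built into their passing it. With the filter at 1 TPM all 10 genes were retained, 4 (Fgf1, Fgf8, Fgf15 and Fgfbp1) being more than 2-fold higher and 2 (Fgfr3 and Fgfr4) more than 2-fold lower. Of the 13729 genes in the table at that filter, 6.45% were more than 2-fold higher and 9.95% more than 2-fold lower. The split between higher and lower genes in the whole table depends on scaling. TPM gave 379 genes higher and 370 lower at 10 TPM, whereas read counts scaled to the library total alone (CPM) gave 280 and 496. Neither pair of counts equals the one that the paper reports for these cells.

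**Figure D1:**
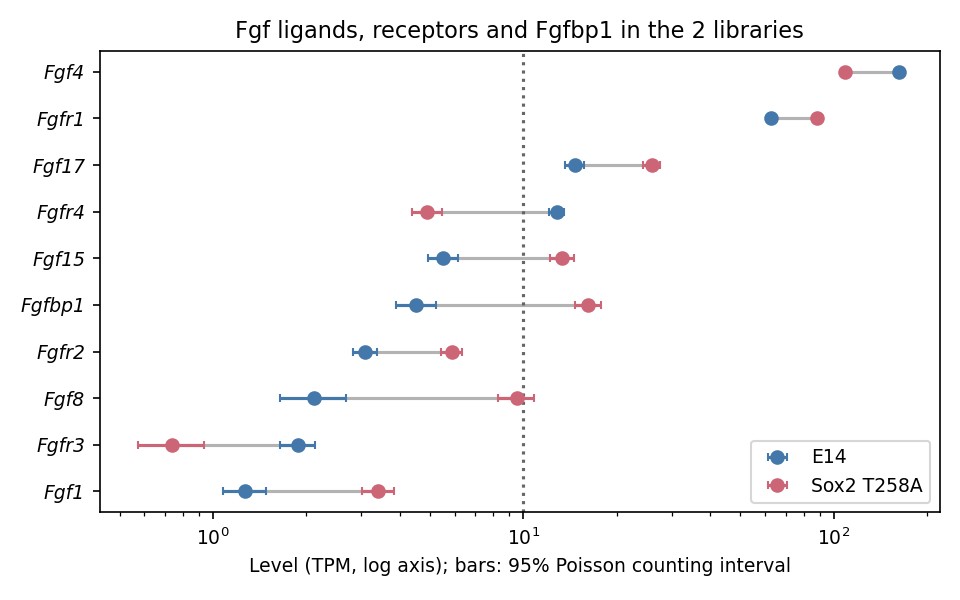
Level of each of the 10 genes (TPM, log axis) in E14 (blue) and Sox2 T258A (red), with 1 library each. Bars are 95% Poisson counting intervals and the dotted line marks 10 TPM. Fgf4, Fgfr4 and Fgfr3 are lower in the mutant library and the other 7 genes are higher.

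Fgf4 was the highest of the 10 genes in both libraries. This ligand is released by the naive epiblast and by ESCs. Its gene (Entrez 14175) lies at 144861386 to 144865245 on chromosome 7 (mm10). It had 15531 reads and 163 TPM in E14, and 6954 reads and 109 TPM in Sox2 T258A cells. The log2 ratio was -0.58 [-0.62, -0.54], below 2-fold, and 18.2% of the 13729 genes had a lower ratio. Fgf4 is a textbook target of Sox2, which binds with Oct4 at adjacent sites of an enhancer in the untranslated part of the last Fgf4 exon. Because this element links the edited protein to a gene described here, it was looked for in the GENCODE M21 transcripts. The pattern searched, on both strands, was CTTTGTTNNNATGCTAA, where N is any base, the letters before the N bases being of the Sox type and those after of the POU type. The pattern was chosen with the Fgf4 element known, so a match in Fgf4 was fixed in advance. It was found in transcripts of 2 of 55341 gene symbols, Fgf4 and Phf10. Each part alone was far more frequent, the Sox letters occurring in 18129 symbols and the POU letters in 11151. The match in Fgf4 is in exon 3 of 3, 1450 bases past the last coding base, at chr7:144864388-144864416 (GRCm38, plus strand), and capitals mark the searched letters.
Fgf4 enhancer element: aaaactCTTTGTTtggATGCTAAtgggat
A match describes the letters and not the binding of a factor in these cells.

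RefSeq promoter sequences (GRCm38.p6, 250 bases before to 50 after a start site of the gene) were matched by symbol for 5 of the 10 genes, Fgf4, Fgfbp1, Fgfr2, Fgfr3 and Fgfr4. Fgf15, Fgf8, Fgf1, Fgf17 and Fgfr1 had no entry. The pair printed here contrasts the abundant, lower Fgf4 with the rarer, higher Fgfbp1. They are Fgf4 at chr7:144861136-144861385 (plus strand) and Fgfbp1 at chr5:43981800-43982049 (minus strand), each read 5′ to 3′ up to the start site. The Fgfbp1 start site used here lies inside the gene, whose span reaches 43981828. Capitals mark, on either strand, GGGCGG (the letters of a GC box), TATATA (a form of TATA box), and CCAAT, which here reads as its reverse complement. The other motif searched, ACAAT, is the core that Sox proteins favor.
Fgf4 promoter: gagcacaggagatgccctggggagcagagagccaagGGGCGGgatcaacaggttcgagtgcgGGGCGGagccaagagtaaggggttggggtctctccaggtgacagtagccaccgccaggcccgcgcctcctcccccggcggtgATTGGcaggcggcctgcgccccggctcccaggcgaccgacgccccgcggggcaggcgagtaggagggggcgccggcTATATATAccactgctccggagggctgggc
Fgfbp1 promoter: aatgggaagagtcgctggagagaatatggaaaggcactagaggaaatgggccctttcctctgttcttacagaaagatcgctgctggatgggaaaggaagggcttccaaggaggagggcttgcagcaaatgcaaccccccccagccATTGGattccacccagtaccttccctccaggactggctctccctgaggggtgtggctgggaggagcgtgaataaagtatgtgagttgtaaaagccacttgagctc
The Fgf4 window was rich in G and C (69.7%, with 28 CpG), against a median of 52.7% and 7 CpG over 32851 promoters of the same length. It held GGGCGG at 214 and 188 bases before the start, CCAAT at 106, and 2 overlapping copies of TATATA at 30 and 28. Fgfbp1 had 53.3% G and C, 4 CpG and a single CCAAT at 105 bases before the start. The shares of all promoters with these letters were 35.7% for GGGCGG, 37.4% for CCAAT, 5.67% for TATATA and 31.0% for ACAAT. The Sox core was in neither window, and of the 5 genes it occurred in that of Fgfr2, from base 16 of the transcribed side, where the start site is base 1. That window was lower in G and C (43.7%, with 4 CpG). The Fgfr4 window held 65.3% G and C and 4 copies of GGGCGG, and the 2 Fgfr3 starts had 69.7% and 73.0%. For Fgfr4, 178 of the 250 bases before the start lay from the first base of a GENCODE exon onward. For both Fgfr3 starts all 250 did. The Fgfr4 copies of GGGCGG lay in that part or past the start, so these windows are not upstream sequence alone.

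Fgf17 and Fgf8 are close relatives that act in the primitive streak and, later, at the boundary of midbrain and hindbrain. Fgf17 (Entrez 14171; chromosome 14, 70636203 to 70642268) was the second ligand by level, with 778 reads and 14.6 TPM in E14 and 923 reads and 25.9 TPM in Sox2 T258A cells. Its log2 ratio of 0.82 [0.69, 0.96] lay short of 2-fold. After correction for GC content and length of the transcripts it was 1.08. Fgf8 (Entrez 14179; chromosome 19, 45736491 to 45742941) had 69 reads and 2.12 TPM in E14, and 222 reads and 9.51 TPM in Sox2 T258A cells. It was 4.49-fold higher, the largest ratio of the 10 genes, at 2.17 [1.77, 2.58], and 98.6% of the 13729 genes had a lower ratio. At 9.51 TPM it stood just under the filter of the study. The pair summed to 16.7 TPM in E14 and 35.4 TPM in Sox2 T258A cells, and Fgf8 went from 0.145 to 0.367 of the Fgf17 level. Markers of the primitive streak and caudal epiblast moved with them in part. Of 8 such genes, 6 reached 1 TPM, 5 of them more than 2-fold higher (6.45% of all genes) and 1, Tbx6, lower at -0.62. The 2 that stayed under 1 TPM were also lower, Wnt3a (67 and 18 reads) at -1.31 and Mesp1 (22 and 10 reads) at -0.52. Of the 5 higher genes, only Wnt3 reached 1 TPM in E14 (2.08 TPM). The others met that level through Sox2 T258A alone, so a higher value was built into their passing it. Summed over all 8, the level went from 8.01 to 27.3 TPM. T (brachyury), which defines the streak, went from 62 to 606 reads. All 8 had reads in each library, with Evx1 lowest at 2 reads in E14. The part of such cells in the Fgf8 and Fgf17 values was not tested. Within 500 kb, 3 of the 15 genes near Fgf17 with at least 10 TPM were more than 2-fold higher (4.17% of all genes at that level), and none of the 11 near Fgf8 was more than 2-fold apart.

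Fgf15, the mouse counterpart of the human hormone FGF19, is a bile acid regulator of the adult gut and is expressed in the embryonic nervous system. Its gene (Entrez 14170; chromosome 7, 144896532 to 144900953) had 314 reads and 5.50 TPM in E14, and 507 reads and 13.3 TPM in Sox2 T258A cells. It was 2.42-fold higher, with a log2 ratio of 1.27 [1.07, 1.48]. The study chose Fgf15 partly on these samples as a putative repressed target, so its direction is not independent evidence. Fgf15 begins 35.1 kb from Fgf4 in a cluster that also holds Fgf3, and the 3 neighbors differed in sign. Fgf3, a ligand of inner ear and tail development, had 125 reads in E14 and 39 in Sox2 T258A cells, a log2 ratio of -1.11 [-1.67, -0.59]. Beyond Fgf15, Oraov1 was at 0.76 and Ccnd1, which encodes cyclin D1 and responds to Erk signaling, at 0.63. On the other side of Fgf3, Ppfia1 was at 0.39 and Cttn at 0.08. The median of chromosome 7 was -0.08 over 1123 other genes with at least 1 TPM. Fgf4 had been 29.6 times as abundant as Fgf15 in E14 and was 8.18 times as abundant in Sox2 T258A cells.

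**Figure D2:**
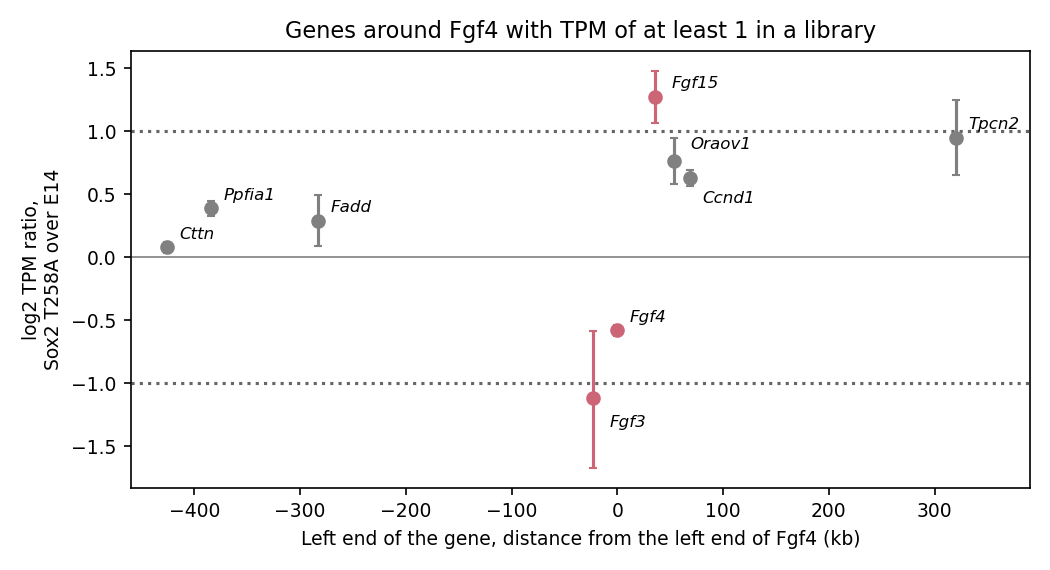
log2 TPM ratio (Sox2 T258A over E14) of the genes within 500 kb of Fgf4 with at least 1 TPM in a library, by distance of their left end from that of Fgf4 in kb. Fgf genes are red, bars are 95% counting intervals and dotted lines mark 2-fold. Fgf3 (-1.11) and Fgf4 (-0.58) lie below 0 and Fgf15 (1.27) above 1, while the other genes lie between 0.08 and 0.95.

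Fgf1, a ligand that binds all Fgf receptors and is stored in cells without a classical secretion signal, had the lowest level of the 5 ligands in both libraries. It had 157 reads and 1.27 TPM in E14, and 281 reads and 3.40 TPM in Sox2 T258A cells, 2.68-fold higher. The log2 ratio was 1.42 [1.14, 1.71], and 0.96 once 1 TPM was added to both values. Fgf1 (Entrez 14164) overlaps Arhgap26 (559 and 345 reads, log2 ratio -0.12) and Gm5820 (7 and 0 reads). Whether reads were assigned by strand is not given in the sources used here, so its counts are uncertain to that extent. Within 500 kb of Fgf1, 1 of the 4 genes with at least 10 TPM was more than 2-fold higher, Spry4 at 1.39. Of all genes at that level, 4.17% were more than 2-fold higher.

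Fgf4 made up a smaller share of the ligand transcripts in Sox2 T258A cells. Over the 18 secreted ligands, the summed level was 199 TPM in E14 and 174 TPM in Sox2 T258A cells. Fgf4 made up 81.8% of it in E14 and 62.4% in Sox2 T258A cells. Without Fgf4, the sum was 36.2 TPM in E14 and 65.5 TPM in Sox2 T258A cells, which was 18.2% and 37.6% of all ligand transcripts. Fgf17 went from 7.36% to 14.9%, Fgf15 from 2.77% to 7.63%, Fgf8 from 1.06% to 5.46% and Fgf1 from 0.639% to 1.95%. Fgf5, the ligand of the formative epiblast that was set apart by the choice of genes, went from 11 to 386 reads and from 0.0715% to 4.20%. The other ligands included genes lower in Sox2 T258A cells. Fgf21, an endocrine ligand of metabolism and stress, had 149 reads in E14 and 9 in Sox2 T258A cells (log2 ratio -3.47 [-4.62, -2.50]). Fgf18, a relative of Fgf8 and Fgf17, was at 2.25 and 2.57 TPM, with an interval that spanned 0 (0.19 [-0.24, 0.61]). Fgf10 had 112 and 49 reads and stayed under 1 TPM. Fgf9 had 9 reads in E14 and none in Sox2 T258A cells. It was 2.22-fold lower with a floor of 3 reads in place of none and the 9 reads taken as exact. Fgf2, Fgf6 and Fgf16 had no reads in either library, which allows up to 0.0498 CPM in E14 and 0.0673 CPM in Sox2 T258A cells. Of the 9 ligands with at least 1 TPM, 6 were higher and 3 lower, with a median of 0.82. Over all 13729 genes, 7200 were higher and 6529 lower, with a median of 0.03.

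**Figure D3:**
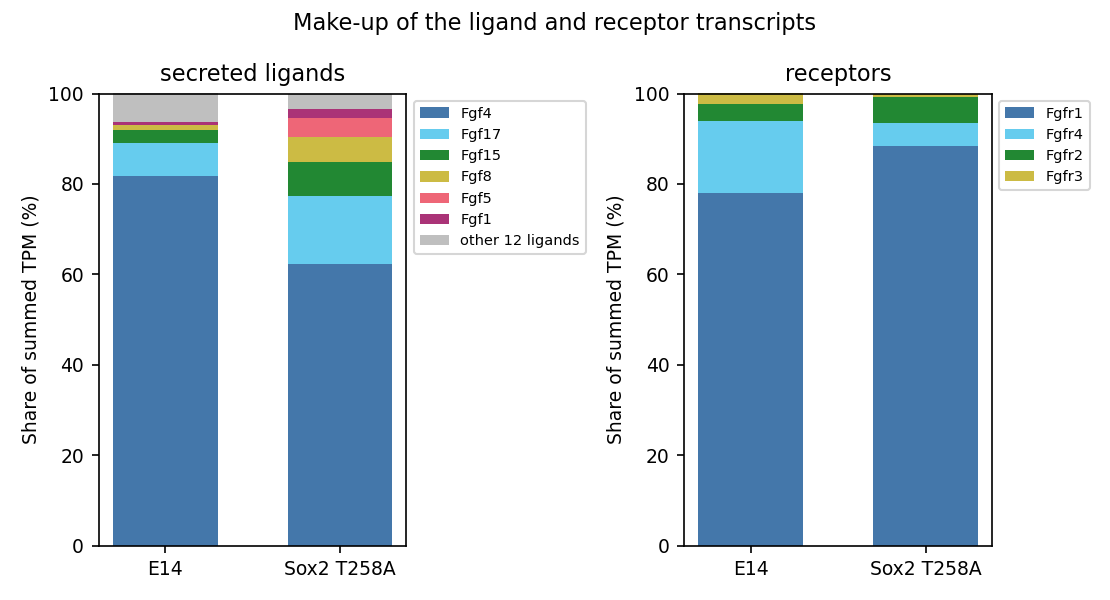
Share of summed TPM (%, from 0) of each secreted ligand (left) and of Fgfr1 to Fgfr4 (right) in E14 and in Sox2 T258A cells, 1 library each, without error bars. Fgf4 takes 81.8% of the ligand bar in E14 and 62.4% in the mutant, and Fgfr1 takes 78.0% and 88.5% of the receptor bar.

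Fgfr1, the main Fgf receptor of ESCs and the epiblast, was the second most abundant of the 10 genes. Its gene (Entrez 14182; chromosome 8, 25518759 to 25575718) had 9941 reads and 62.9 TPM in E14, and 9371 reads and 88.4 TPM in Sox2 T258A cells. The log2 ratio of 0.49 [0.45, 0.53] was below 2-fold. The median over 745 other genes of chromosome 8 with at least 1 TPM was 0.26, against 0.03 for all genes, and Fgfr1 exceeded it by 0.24. Fgfr1 overlaps the noncoding gene Gm16159, which had 0 reads in both libraries. Of the 12 genes within 500 kb with at least 10 TPM, Plekha2 had the highest ratio at 1.05 and Plpp5 the lowest at -0.82. Fgfr2 (Entrez 14183; chromosome 7, 130162451 to 130266808), whose splice forms serve epithelium and mesenchyme and which is used by trophoblast and primitive endoderm, had 499 reads and 3.09 TPM in E14 and 632 reads and 5.87 TPM in Sox2 T258A cells. Its log2 ratio was 0.92 [0.75, 1.10], so that the interval reached 2-fold. The gene table does not separate the splice forms that set ligand choice. Within 500 kb of Fgfr2, none of the 3 genes with at least 10 TPM was more than 2-fold apart. Of all genes at that level, 4.17% were more than 2-fold higher and 4.07% more than 2-fold lower.

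Fgfr4 and Fgfr3 were lower. Fgfr4 (Entrez 14186; chromosome 13, 55152818 to 55168759) pairs with Klb for endocrine Fgfs and is found in primitive endoderm. It had 1269 reads and 12.8 TPM in E14, and 326 reads and 4.91 TPM in Sox2 T258A cells. It was 2.61-fold lower, with a log2 ratio of -1.38 [-1.56, -1.21], and 5.99% of the 13729 genes had a lower ratio. Fgfr3 (Entrez 14184; chromosome 5, 33721724 to 33737068), known for its role in cartilage growth, had 237 reads and 1.88 TPM in E14, and 67 reads and 0.739 TPM in Sox2 T258A cells. It was 2.54-fold lower, at -1.35 [-1.76, -0.95], an interval that reached inside 2-fold. Within 500 kb, none of the 19 genes near Fgfr4 and none of the 9 near Fgfr3 with at least 10 TPM was more than 2-fold apart. Of all genes at that level, 4.17% were more than 2-fold higher and 4.07% more than 2-fold lower.

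Fgfr1 made up a larger share of the receptor transcripts in Sox2 T258A cells. Summed over Fgfr1 to Fgfr4, the level was 80.7 TPM in E14 and 99.95 TPM in Sox2 T258A cells. Fgfr1 took 78.0% in E14 and 88.5% in Sox2 T258A cells, while Fgfr4 took 15.9% and 4.91%. Fgfr2 went from 3.84% to 5.87% and Fgfr3 from 2.33% to 0.740%. Fgfr1 was 4.91 times as abundant as Fgfr4 in E14 and 18.02 times in Sox2 T258A cells. Fgf4 was 2.59 times as abundant as Fgfr1 in E14 and 1.23 times in Sox2 T258A cells. Fgfrl1, a receptor without a kinase domain, was at 8.59 and 9.87 TPM, a log2 ratio of 0.20. Primitive endoderm markers moved with Fgfr3 and Fgfr4 and against Fgfr2, which was higher (0.92) although primitive endoderm uses it too. Of 8 such genes, 7 reached 1 TPM and all 7 were lower, 5 of them by more than 2-fold (9.95% of all genes), with a median of -1.88. Sox7 and Sox17 met that level through E14 alone, so a lower value was built into their passing it. The summed level over the list went from 74.8 to 36.0 TPM. Gata4 went from 1607 to 274 reads, Gata6 from 952 to 174 and Pdgfra from 1280 to 218, and none of the list was without reads. The part of such cells in the receptor values was not tested.

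In order of level, the E14 genes ran Fgf4, Fgfr1, Fgf17, Fgfr4, Fgf15, Fgfbp1, Fgfr2, Fgf8, Fgfr3 and Fgf1. The counting intervals of neighbors in that order overlapped for Fgf15 and Fgfbp1 and for Fgf8 and Fgfr3. In Sox2 T258A cells the first 3 places were the same, followed by Fgfbp1, Fgf15, Fgf8, Fgfr2, Fgfr4, Fgf1 and Fgfr3, with an overlap for Fgfr2 and Fgfr4. Fgfr4 moved from place 4 to place 8, Fgf8 from 8 to 6 and Fgfbp1 from 6 to 4.

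Fgfbp1 releases Fgf ligands from the heparan sulfate of the matrix and so makes them available to receptors. The gene (Entrez 14181; chromosome 5, 43978858 to 43981828) had 173 reads and 4.52 TPM in E14, and 415 reads and 16.2 TPM in Sox2 T258A cells. The log2 ratio was 1.84 [1.58, 2.1], and 98.1% of the 13729 genes had a lower ratio. Of the 3 genes within 500 kb with at least 10 TPM, Prom1 was at 1.33, Fbxl5 at 0.30 and Tapt1 at 0.12. Its relative Fgfbp3 was at 3.94 and 3.95 TPM, with an interval of -0.31 to 0.31 around a log2 ratio of 0.00. Among the partners of the receptors, Cdh2 (N-cadherin, which holds Fgfr1 at the cell surface) had 173 reads and 1.13 TPM in E14, and 1165 reads and 11.4 TPM in Sox2 T258A cells. Its log2 ratio of 3.33 [3.10, 3.57] was the highest of the 6 co-receptor and binding protein genes with at least 1 TPM. Ncam1, a neural adhesion molecule, was at 0.90 and Flrt3, which binds Fgf receptors, at 0.77. Klb (beta-Klotho), the partner of Fgfr4 for Fgf15 and of Fgfr1 for Fgf21, went the other way, with 363 reads in E14 and 88 in Sox2 T258A cells (-1.47 [-1.82, -1.13]). Of these 6 genes, 4 were higher, Fgfbp3 was at 0.00 and Klb was lower. More than 2-fold apart were 2 on the higher side (6.45% of all genes) and 1 on the lower (9.95%). Their median was 0.83, against 0.03 over all genes. For the endocrine branch, then, Fgf15 and Fgfr1 (0.49) were higher, whereas Fgfr4, Klb and the ligand Fgf21 were lower. Kl (0.71) and the endocrine ligand Fgf23 (-0.64) stayed under 1 TPM, with intervals that spanned 0.

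**Figure D4:**
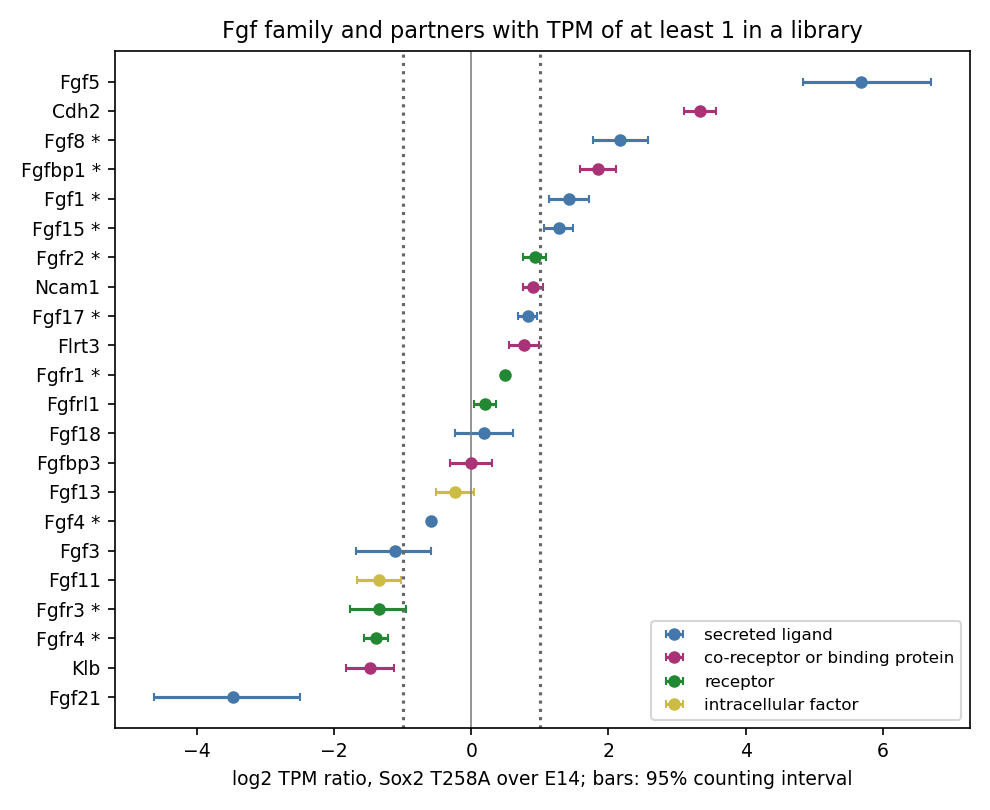
log2 TPM ratio (Sox2 T258A over E14) of the 22 Fgf family and partner genes with at least 1 TPM in a library, by role. Stars mark the 10 genes of the report, bars are 95% counting intervals and dotted lines mark 2-fold. Fgf5 and Cdh2 lie farthest above 0 and Fgf21 farthest below, with Klb, Fgfr4 and Fgfr3 grouped between -1.47 and -1.35.

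Heparan sulfate is the cofactor of Fgf binding. Its core proteins as a list stayed close to the median of all genes. Of 10 with at least 1 TPM, 5 were higher and 5 lower, with a median of 0.04. Gpc4 (glypican 4) was the single one more than 2-fold apart, with 1191 reads and 16.3 TPM in E14, and 1895 reads and 38.6 TPM in Sox2 T258A cells (1.25 [1.14, 1.35]). Of all genes, 6.45% were more than 2-fold higher and 9.95% more than 2-fold lower. The enzymes that build and edit the chains had 9 of 13 genes higher and a median of 0.35. Of the 13 genes, 2 (15.4%) were more than 2-fold higher and 1 (7.69%) more than 2-fold lower, against 6.45% and 9.95% of all genes. Sulf1, which trims 6-O-sulfate from finished chains, had 680 reads and 4.67 TPM in E14, and 3134 reads and 32.2 TPM in Sox2 T258A cells. Its log2 ratio was 2.78 [2.66, 2.91]. Sulf2, of the same activity, was at 77.9 and 99.6 TPM (0.35). Hs6st2, which adds 6-O-sulfate, was at 1.20 and 4.61 TPM (1.94 [1.69, 2.2]), and Hs3st1 at 3.82 and 1.51 TPM (-1.34 [-1.80, -0.90]). Hs6st1, which adds the same group and was the more abundant of that pair, was at 38.9 and 34.9 TPM (-0.16 [-0.23, -0.09]).

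The relay from receptor to Erk had 1 gene past 2-fold. Of 20 genes with at least 1 TPM, 14 were higher and 6 lower, with a median of 0.22. None was more than 2-fold higher and 1 was more than 2-fold lower, against 6.45% and 9.95% of all genes. In a list of this size such shares give few genes, so these counts do not set the relay apart. The 1 gene past 2-fold was Frs3, a relative of the receptor adaptor Frs2. It had 1576 reads and 23.4 TPM in E14, and 441 reads and 9.77 TPM in Sox2 T258A cells (-1.26 [-1.42, -1.11]). Frs2 itself was at 17.9 and 23.7 TPM (0.40). Short of 2-fold, Gab1 was at 134 and 241 TPM (0.85 [0.82, 0.87]) and Hras at 45.3 and 29.7 TPM (-0.61 [-0.70, -0.52]). Targets and feedback inhibitors of the pathway had 12 of 13 genes higher, 8 of them more than 2-fold (6.45% of all genes), with a median of 1.19. Among those 8, the 7 with at least 10 TPM were Etv1 (2.12), Il17rd (1.92), Spred1 (1.75), Dusp4 (1.66), Spry4 (1.39), Dusp6 (1.32) and Dusp5 (1.19). Spred3 was the other (1.04), and Etv4, at -0.57, was the single gene that was lower. These genes report Erk activity in many cells, and the clone had earlier been kept with a Mek inhibitor, whose part in these values cannot be told apart from that of the genotype.

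**Figure D5:**
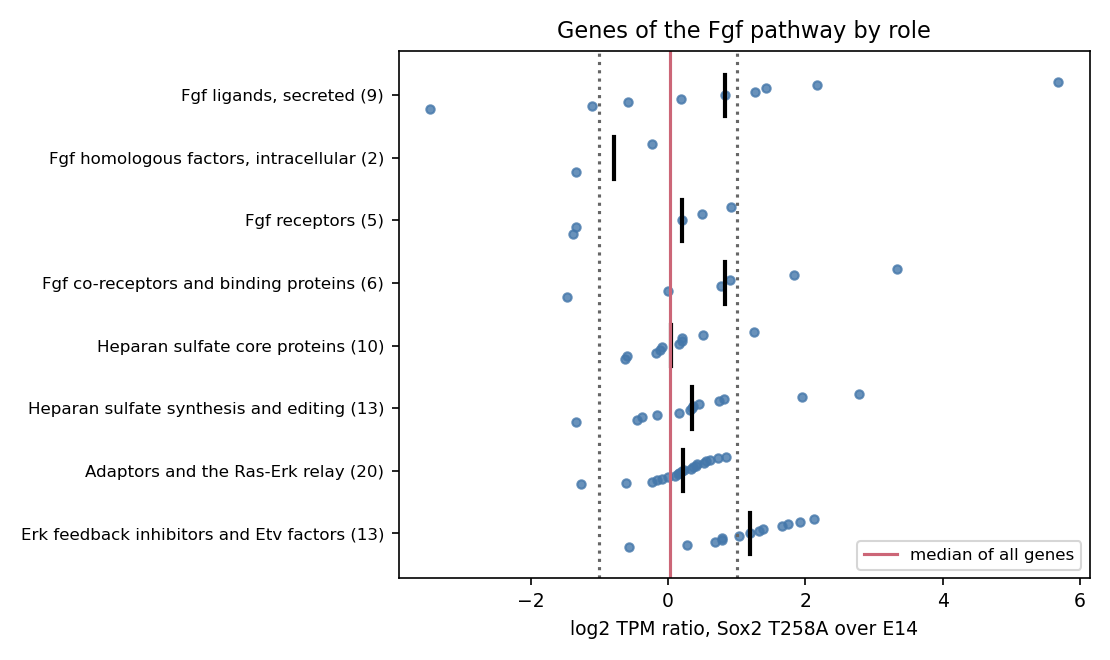
log2 TPM ratio (Sox2 T258A over E14) of each gene with at least 1 TPM in a library, in 8 lists of Fgf pathway genes (number of genes in brackets). Black bars are list medians, the red line is the median of all genes (0.03) and dotted lines mark 2-fold. Feedback inhibitors and Etv factors have the highest median (1.19), and the Ras-Erk relay sits near the median of all genes (0.22).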

How the data were processed

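Polyadenylated RNA of E14 and Sox2 T258A cells was sequenced on an Illumina instrument, 1 library per genotype. The authors deposited a gene table on mm10 with whole-number read counts without normalization, FPKM (scaled for length and fragment total) and TPM (scaled to a common library sum). The submitters' processing notes name bcl2fastq 2.20.0, Trimmomatic, HISAT2 2.1.0 and StringTie 2.1.3b, and list hg19 beside mm10. Use of strand and of reads that map to several genes is not given in the sources used here.

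The TPM ratio was taken without a pseudocount, with the filter (10 TPM in at least 1 library) and 2-fold threshold of the study. Its interval is the exact Clopper-Pearson interval of the read counts moved to the TPM scale. It was tested only on simulated independent counts of genes with more reads, scaled by library totals. Amplified reads, low counts and the TPM scale were not covered by that test. A gene with 3 reads or fewer in a library was set against 3 reads. With 1 library per group, no test was possible. The 10 genes, 8 pathway lists and 6 marker lists were chosen with earlier results of these data known. The rule named all 10 genes, Sox2, Fgf5, list genes with at least 10 TPM that were more than 2-fold apart (or else the extremes) and neighbors within 500 kb with at least 10 TPM. Neighbors are given singly around Fgf4 and Fgfbp1 and as extremes or counts elsewhere, and other list genes, Phf10 and the motifs were named after their values were seen. Alternatives were other filters, folds, pseudocounts, FPKM and CPM ratios, TMM (edgeR 4.0.16) and median-of-ratios (DESeq2 1.42.0) factors, centring, and removal of GC and length trends. GC and length came from GENCODE M21, which covered 24074 genes. Python 3.11.15 and pandas 2.3.3 were used.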

Additional observations from a re-analysis of the deposited data

How the results depend on the processing

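With 1 library per genotype, no difference has a replicate check. No paired analysis was possible because each group held 1 library. Of 80 ratios of the 10 genes under 8 alternatives of value, scaling, pseudocount, centring and trend, none changed sign and 64 lay inside the counting interval of the reported ratio. Fgf1 (0.96) and Fgfr3 (-0.73) dropped inside 2-fold with a pseudocount of 1, and Fgf17 (1.08) passed it after correction for GC and length. The count of genes more than 2-fold higher, reported as 2, was 4 at 1 TPM or without a filter, 0 at 20 TPM and 1 at 3-fold. The count more than 2-fold lower, reported as 1, was 2 at 1 TPM or without a filter, 0 at 20 TPM and 0 at 3-fold. Over all genes, the higher and lower counts were 886 and 1366 of 13729 at 1 TPM, and 1836 and 3388 of 24532 without a filter. They were 271 and 212 of 6948 at 20 TPM, and 104 and 136 of 9094 at 3-fold. As a share of read counts, Fgf4 made up 89.2% and 73.3% of the ligands and Fgfr1 83.2% and 90.1% of the receptors in E14 and Sox2 T258A cells, which is not scaled for length. Once GC and length were corrected for, the medians were 1.08 for ligands, 0.44 for receptors, 0.25 for heparan sulfate enzymes and 0.15 for the relay. At 10 TPM they were -0.45 for receptors and 2.59 for co-receptors and binding proteins, over 2 genes each, and the intracellular factors had no gene at that level. Cdh2 and Fgfbp1, the co-receptor and binding protein genes at 10 TPM, met it through Sox2 T258A alone, and the receptor Fgfr4 through E14 alone. Their direction was thus built into passing the filter. The same holds at 1 TPM for any gene that reached that level in 1 library alone. FPKM and CPM moved the median of all genes by -0.14. Of genes with at least 10 TPM, FPKM counted 278 higher and 496 lower, and centring 307 and 436. Low read counts limit Fgfr3 and Fgf8 most.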

Other observations

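The intracellular Fgf homologous factors, which are not secreted and bind sodium channels, had lower values in Sox2 T258A cells for both genes with at least 1 TPM. Fgf11 had 404 reads and 4.89 TPM in E14, and 107 reads and 1.94 TPM in Sox2 T258A cells, a log2 ratio of -1.34 [-1.66, -1.03]. Fgf13 had 297 and 169 reads, and its interval spanned 0 (-0.24 [-0.52, 0.04]). Fgf12 and Fgf14 stayed under 1 TPM, with 4 and 19 reads in E14 and 2 and 23 in Sox2 T258A cells. The median of the 2 genes with at least 1 TPM was -0.79.

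Markers of other cell types differed by list. Trophoblast genes, a tissue that responds to Fgf4, gave no common direction. Of 6 with at least 1 TPM, 2 were more than 2-fold higher and 3 more than 2-fold lower, against 6.45% and 9.95% of all genes. Cdx2, which defines trophoblast and also marks caudal epiblast, went from 32 to 554 reads, Tfap2c went from 4521 to 957 reads, and Elf5 had no reads in either library. Eomes was the other higher gene (1.51), and the paper used both Eomes and Cdx2 as mesendoderm markers in teratomas. Besides Tfap2c, the genes more than 2-fold lower were Ascl2 (-1.45) and Krt7 (-1.14). The summed level of the list was 72.3 TPM in E14 and 45.7 TPM in Sox2 T258A cells. Neural markers had 4 of 5 genes higher, 3 of them more than 2-fold (6.45% of all genes), with Nes at 6.67 and 36.2 TPM, and a summed level of 91.6 and 120.9 TPM. Tubb3, the 1 of the 5 that was lower, held 77.3 and 65.8 TPM of that sum. Of the fibroblast markers, which include genes of feeder cells, Lum, Dcn and Postn had no reads in either library. Of 4 with at least 1 TPM, 1 was more than 2-fold higher and 2 were more than 2-fold lower, against 6.45% and 9.95% of all genes. The summed levels of the list were 49.8 and 19.5 TPM. The part of any such cells in the Fgf values was not tested.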
